A study of Rattus norvegicus with 48 samples.

Results

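The fibrillar collagen genes Col1a1, Col1a2 and Col3a1 were followed through 48 RNA-seq libraries from the fat of 24 male adolescent rats. They were taken by their Ensembl IDs in the deposited gene table, ENSRNOG00000003897 for Col1a1, ENSRNOG00000011292 for Col1a2 and ENSRNOG00000003357 for Col3a1, and all 3 of them were found among the 23481 genes listed. Each rat gave subcutaneous fat (SAT) and visceral fat (VAT). Time of day was the first factor: the early active phase stood at zeitgeber time 13 (hours from lights on) and the late one at 23. The design crossed it with exercise. Sedentary rats of the early phase are called EAC and exercised ones EAE, and those of the late phase LAC and LAE, with 6 libraries per depot in each group. Tissue came from rats on postnatal day 61, a day (24 h) past the final session in the exercised groups. The labels used here name neither the strain nor the kind of exercise.

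Fibrillar collagens are the rope-like proteins that give connective tissue its tensile strength. Col1a1 and Col1a2 encode the chains that assemble into type I collagen, the main fibre of skin, bone and fibrous septa, and Col3a1 encodes the single kind of chain that forms type III collagen, which is abundant in distensible organs and in young connective tissue. In fat they are made mainly by fibroblasts and adipocyte progenitors and surround the fat cells and vessels. Collagen content of fat is known to change with growth of the depot and with fibrosis.

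Of the 3 genes, RefSeq's promoter table (assembly GRCr8) held an entry for Col1a2, which encodes the second chain of type I collagen. The stretch from 250 to 141 bases before its annotated start, chr4:33518307-33518416 on the plus strand, is shown as the promoter stretch of a type I collagen gene that holds matches to the motifs searched. It bears on none of the comparisons below. Capitals mark matches to the searched motifs.
Col1a2: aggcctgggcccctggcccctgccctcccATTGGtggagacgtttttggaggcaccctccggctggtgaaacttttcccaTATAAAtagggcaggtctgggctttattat
The first is CCAAT on the minus strand (ATTGG as printed), 221 to 217 bases before the start, and the second is TATAAA on the plus strand, 170 to 165 bases before it. Distances are from RefSeq's annotated start, and where transcription began in these libraries was not analysed here. On either strand, CCAAT occurred in 34.0% and TATAAA in 12.9% of all 33469 windows of 250 bases. GGGCGG (30.5% of the windows) and CAGACA (17.2%) were also searched on both strands and had no match in the 250 bases of Col1a2, and the searched motifs share no letters where they matched.

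The libraries held 13163675 to 17890033 estimated counts (median 15576425), and the collagens, at the lowest 943 CPM, were far above the level where counting error matters. Levels are given as CPM, a gene's count relative to its library total, scaled by the trimmed mean of M values over all 48 libraries. CPM is not divided by transcript length, so levels are compared between libraries and not between genes. In SAT, LAE replicates 4 and 6 stood apart, with a median Spearman correlation to the other SAT libraries of 0.828 and 0.846 against 0.956 to 0.980 for the other 22. In VAT, EAC replicate 5 (0.958) and EAE replicate 3 (0.950) stood apart from the other 22 (0.976 to 0.984). The deposited IDs came without symbols and matched 0 entries of the gene table at hand, so markers of fat cells, fibroblasts, muscle, skin or blood, and other genes of collagen assembly and breakdown, were not analysed here.

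The 3 collagens took a large share of the counts in subcutaneous fat. Together they took 1.17% to 12.9% of all counts in a SAT library (median 4.69%) and 0.785% to 1.89% in a VAT library (median 1.17%). One of them had the highest count of all genes, with no correction for transcript length, in 7 of 24 SAT libraries, Col3a1 in 5 and Col1a1 in 2, and in 0 of 24 VAT libraries. By rank of count among all genes, Col3a1 lay between 1 and 10 in SAT and between 7 and 18 in VAT, Col1a1 between 1 and 14 and between 18 and 53, and Col1a2 between 3 and 36 and between 24 and 104. Over the SAT groups the combined share was 5.05% ± 1.93 in EAC, 5.56% ± 3.85 in EAE, 7.08% ± 2.38 in LAC and 3.96% ± 3.33 in LAE (SD, n = 6). Over the VAT groups it was 1.3% ± 0.348, 1.19% ± 0.352, 1.32% ± 0.307 and 1.03% ± 0.219 in the same order.

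Col1a1, the larger contributor to type I collagen, ran in SAT from 10176 through a median of 17217 to 24402 CPM in EAC, from 8834 through 13635 to 53083 in EAE, from 12486 through 23211 to 39305 in LAC and from 3075 through 14024 to 42814 in LAE. In VAT it ran from 1908 through 2799 to 3946 CPM in EAC, from 1764 through 2398 to 4541 in EAE, from 2041 through 2905 to 4389 in LAC and from 1811 through 2160 to 3450 in LAE. The SAT groups overlap one another widely, as do the VAT groups, and of the 24 SAT libraries LAE replicates 4 (3634 CPM) and 6 (3075 CPM) alone fall within the VAT range. Col1a2, the partner chain, ran in SAT from 5000 through 9676 to 15408 CPM in EAC, from 4462 through 7262 to 30134 in EAE, from 6961 through 13108 to 20795 in LAC and from 1614 through 4575 to 19631 in LAE. In VAT it ran from 1242 through 1555 to 2229 CPM in EAC, from 943 through 1471 to 2494 in EAE, from 1161 through 1592 to 2801 in LAC and from 982 through 1243 to 1992 in LAE. The same 2 SAT libraries, at 1749 and 1614 CPM, are again the ones inside the VAT range. Col3a1, the chain of type III collagen, ran in SAT from 12656 through 21112 to 28880 CPM in EAC, from 12054 through 18478 to 47112 in EAE, from 17795 through 28714 to 40708 in LAC and from 4898 through 14249 to 43762 in LAE. In VAT it ran from 6894 through 8394 to 11861 CPM in EAC, from 6037 through 7457 to 11063 in EAE, from 7263 through 8912 to 10416 in LAC and from 6183 through 7386 to 8894 in LAE. Here LAE replicates 4 and 6 (5088 and 4898 CPM) lie below every VAT library, and SAT LAE replicate 3 (10698 CPM) is inside the VAT range.

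**Figure D1:**
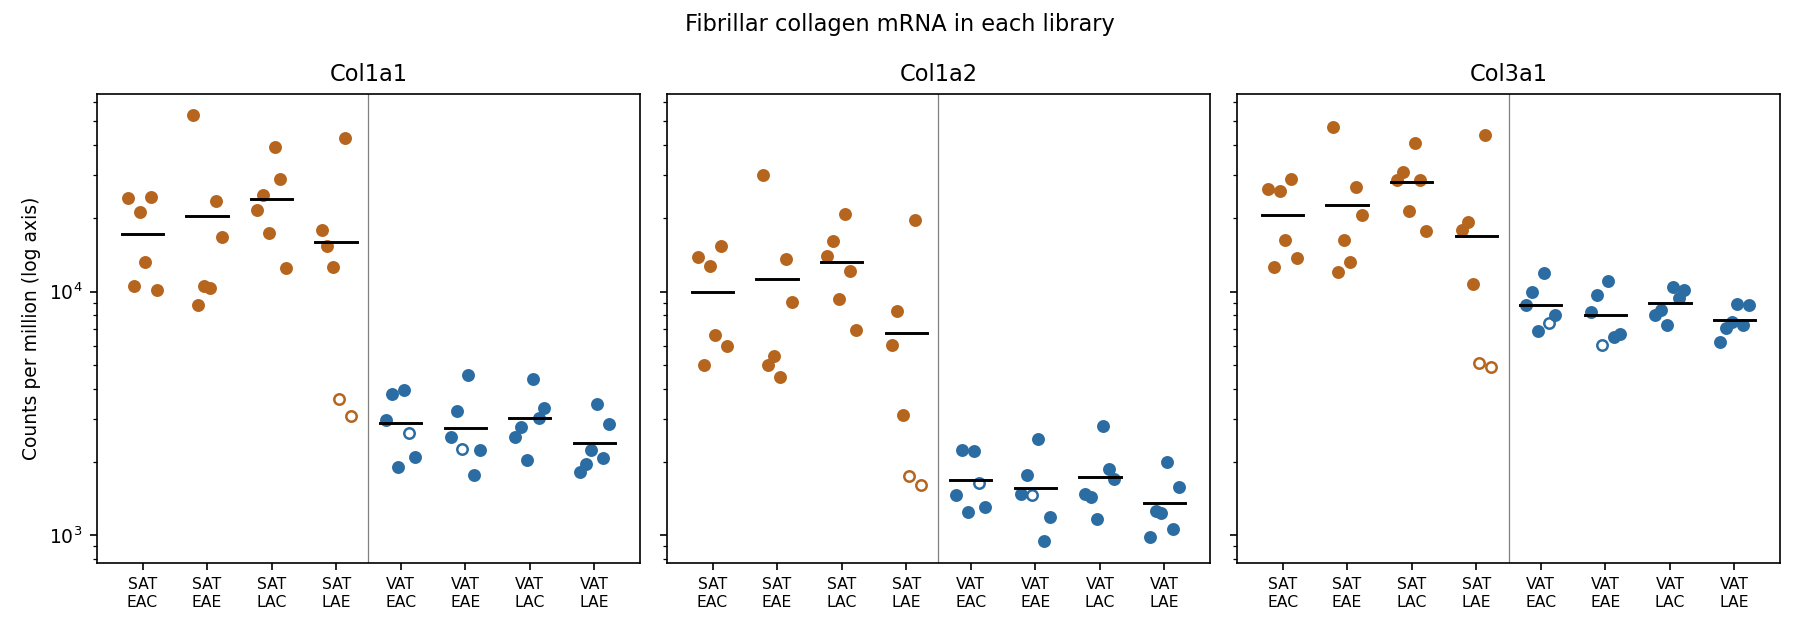
CPM (log axis) of Col1a1, Col1a2 and Col3a1 in the 6 libraries of each depot and group, with SAT in brown and VAT in blue; black lines are arithmetic group means and open points are the 4 libraries that stood apart. SAT values lie above VAT values apart from LAE replicates 4 and 6 and, for Col3a1, LAE replicate 3.

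The order of the 8 group means was the same for all 3 genes: SAT LAC, SAT EAE, SAT EAC and SAT LAE, then VAT LAC, VAT EAC, VAT EAE and VAT LAE. Col1a1 means were 24076 ± 9399, 20500 ± 16877, 17294 ± 6758 and 15901 ± 14520 CPM in SAT and 3013 ± 802, 2891 ± 848, 2764 ± 997 and 2398 ± 628 CPM in VAT, in that order (SD, n = 6). Col1a2 means were 13247 ± 4948, 11279 ± 9853, 9941 ± 4575 and 6748 ± 6835 CPM in SAT and 1740 ± 573, 1683 ± 440, 1557 ± 538 and 1350 ± 377 CPM in VAT. Col3a1 means were 28045 ± 7969, 22699 ± 13127, 20631 ± 7201 and 16921 ± 14492 CPM in SAT and 8946 ± 1263, 8812 ± 1837, 8023 ± 1999 and 7622 ± 1041 CPM in VAT. Neighbours in this order differed by less than their pooled SD within each depot, for each of the 3 genes. The step from SAT LAE to VAT LAC exceeded the pooled SD for Col1a1 (12887 against 10283 CPM) and Col1a2 (5008 against 4850 CPM) and did not for Col3a1 (7974 against 10286 CPM).

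Subcutaneous fat carried several times more collagen message than visceral fat, and the fitted fold was larger for the type I chains than for Col3a1. In sedentary rats Col1a1 was 6.91-fold higher in SAT than in VAT (95% interval 4.46 to 10.7; log2 VAT minus SAT -2.79 ± 0.31 SE; adjusted p = 2.86e-09, edgeR's quasi-likelihood test). Col1a2 was 6.70-fold higher (4.24 to 10.6; adjusted p = 9.36e-09, edgeR) and Col3a1 2.71-fold higher (1.93 to 3.80; adjusted p = 5.84e-06, edgeR). In exercised rats the folds were 7.01 (4.52 to 10.9) for Col1a1, 6.02 (3.82 to 9.48) for Col1a2 and 2.51 (1.79 to 3.51) for Col3a1, with adjusted p of 2.57e-09, 2.64e-08 and 1.84e-05 (edgeR). Each of these folds averages the early and late groups of its activity with equal weight. So 3 of 3 collagens were called lower in VAT under both activities. Of the 14693 genes tested, 43.3% were called in sedentary rats (21.7% lower in VAT) and 50.3% in exercised rats (27.4% lower in VAT). The median log2 change of the 3 genes was -2.75 in sedentary and -2.59 in exercised rats, against -0.02 and -0.04 over all genes tested. The fits behind these folds held no term for the rat, so both depots of a rat counted as independent. With the rat as a block, the sedentary changes were -2.74, -2.68 and -1.39 on the log2 scale (adjusted p = 1.19e-06, 2.29e-06 and 1.62e-04, edgeR). With that block the exercised changes were -2.45, -2.17 and -1.06 (adjusted p = 8.91e-06, 4.92e-05 and 2.73e-03, edgeR). Without the block, leaving out the libraries that stood apart gave exercised changes of -3.03, -2.82 and -1.51. The sedentary changes without them were -2.78, -2.74 and -1.42. In bulk tissue, a different number of collagen-making cells and a different amount of message per cell cannot be told apart.

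Taken rat by rat, SAT exceeded VAT in 24 of 24 rats for Col1a1, in 23 for Col1a2 and in 22 for Col3a1. The within-rat excess of Col1a1 ranged from 1.05-fold to 21.0-fold with a median of 8.04-fold. For Col1a2 it ranged from 0.878 to 20.4 (median 6.59) and for Col3a1 from 0.558 to 6.02 (median 2.92). For Col1a1 and Col1a2 the lowest value was that of LAE rat 4 and the highest that of EAE rat 1. In the check of replicate numbers described below, SAT of these rats did not pair best with the same number in VAT. The lowest values belonged to LAE rats 4 and 6, whose SAT libraries stood apart: there SAT over VAT was 1.05 and 1.08 for Col1a1, 0.878 and 1.02 for Col1a2, and 0.572 and 0.558 for Col3a1. Among the 20 rats with no library that stood apart, SAT was higher in 20 of 20 for each gene, from 2.27-fold, 1.79-fold and 1.19-fold for Col1a1, Col1a2 and Col3a1.

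The balance between type III and type I message separated the depots without overlap. The ratio of Col3a1 to Col1a1 counts, in which library size and normalisation cancel, lay between 0.848 and 1.59 in the 24 SAT libraries (median 1.24) and between 2.37 and 3.81 in the 24 VAT libraries (median 3.08). Within rats the log2 ratio was higher in VAT in 24 of 24, by 1.36 on average, a 2.57-fold shift, and by 0.79 to 1.98 in single rats. A permutation test that flipped the sign within rats gave p = 1e-05, the smallest that 100000 resamples can give, and adjusted p = 0.00018 over 18 tests of ratios. Each count also depends on transcript length, so the ratio shows a difference between depots and not which message had more copies. SAT LAE replicates 4 and 6 had VAT-like levels of Col1a1, yet their log2 ratios of 0.49 and 0.67 lay on the SAT side, where the lowest VAT library stood at 1.25. Within SAT, replicate 6 had the highest ratio of the 24 libraries and replicate 4 lay above the median of 0.31.

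**Figure D2:**
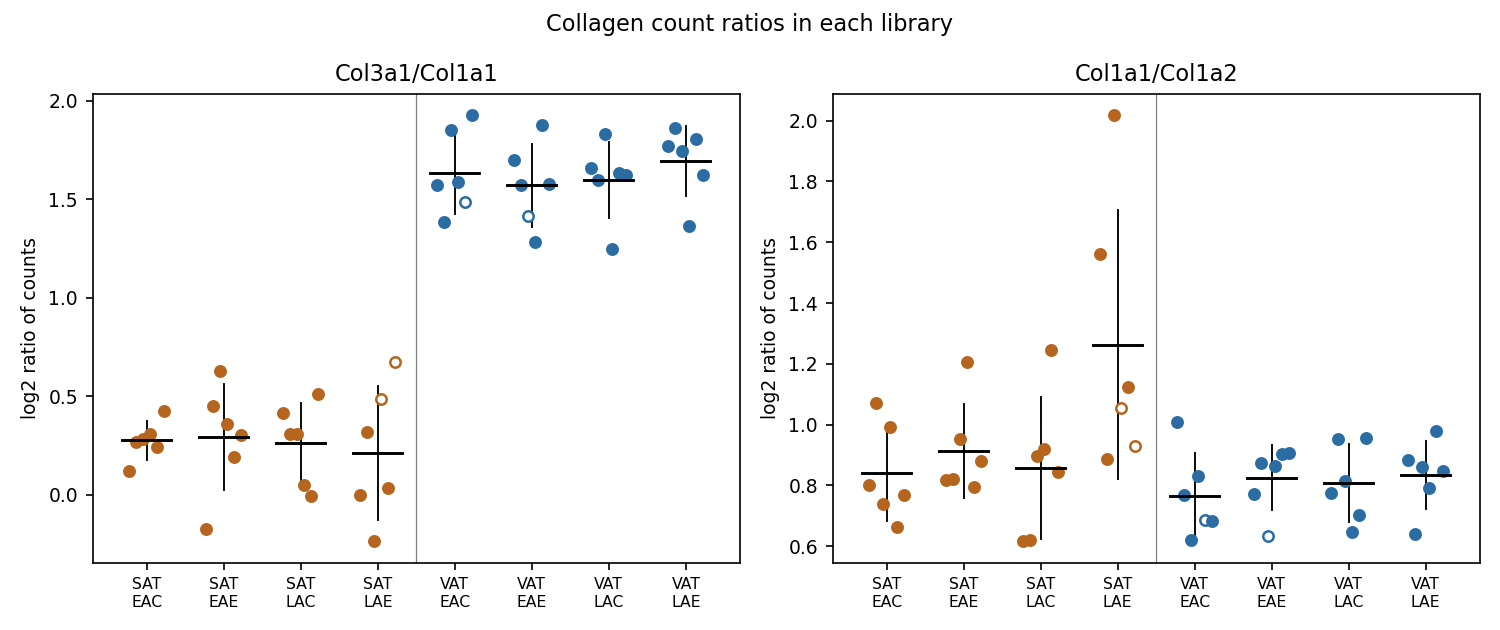
log2 ratio of Col3a1 to Col1a1 counts (left) and of Col1a1 to Col1a2 counts (right) in each library by depot and group; black lines are group means, vertical bars SD (n = 6), and open points the 4 libraries that stood apart. The Col3a1 to Col1a1 ratio tops out at 0.67 in SAT and starts at 1.25 in VAT, and in the right panel SAT LAE replicates 1 and 3 sit at 1.56 and 2.02.

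The ratio of the type I chains to each other differed little between the depots. Counts of Col1a1 were 1.54 to 2.01 times those of Col1a2 in VAT (median 1.77) and 1.53 to 4.05 times in SAT (median 1.86). The within-rat difference of the log2 ratio, VAT minus SAT, averaged -0.16 and ran from -1.16 to 0.33, with 8 of 24 rats higher in VAT (permutation p = 0.0145, adjusted p = 0.13). The highest SAT values, 2.02 on the log2 scale in LAE replicate 3 and 1.56 in LAE replicate 1, were both in the late exercise group, whose mean was 1.26 ± 0.44 against 0.86 ± 0.23 in LAC (SD, n = 6). That difference did not pass the test (0.41 on the log2 scale, exact permutation p = 0.0649, adjusted p = 0.39), and without replicates 4 and 6 it was 0.54 (adjusted p = 0.343, exact permutation). Leaving out rat LAC 2 took the depot difference of this ratio past the threshold (-0.18, adjusted p = 0.0319, permutation test). None of the comparisons of ratios between groups within a depot passed the threshold (lowest adjusted p = 0.39), and Col3a1 to Col1a1 differed between groups by at most 0.12 on the log2 scale in either depot. Without LAE replicates 4 and 6 that ratio differed in SAT by -0.24 for late exercise and by -0.27 for LAE minus EAE (adjusted p = 0.48 and 0.486, exact permutation).

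Within a depot the 3 genes varied together from rat to rat. After group means were removed, log2 CPM of Col1a1 and Col1a2 correlated over the 24 SAT libraries at r = 0.961 (Spearman's rho = 0.937), Col1a1 and Col3a1 at r = 0.982 (rho = 0.967) and Col1a2 and Col3a1 at r = 0.986 (rho = 0.977). Over the 24 VAT libraries the values were r = 0.957 (rho = 0.930), r = 0.917 (rho = 0.924) and r = 0.844 (rho = 0.842) in the same order. A permutation test that shuffled libraries within groups gave p = 1e-05 for each of the 6 pairs, before and after adjustment, the smallest that 100000 resamples can give. Without the 2 libraries farthest from the median r was 0.946, 0.974 and 0.979 in SAT and 0.942, 0.898 and 0.814 in VAT. Without the libraries that stood apart it was 0.956, 0.969 and 0.989 in SAT and 0.964, 0.950 and 0.916 in VAT. Within a library the 3 values share one library size, which can add to these correlations.

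**Figure D3:**
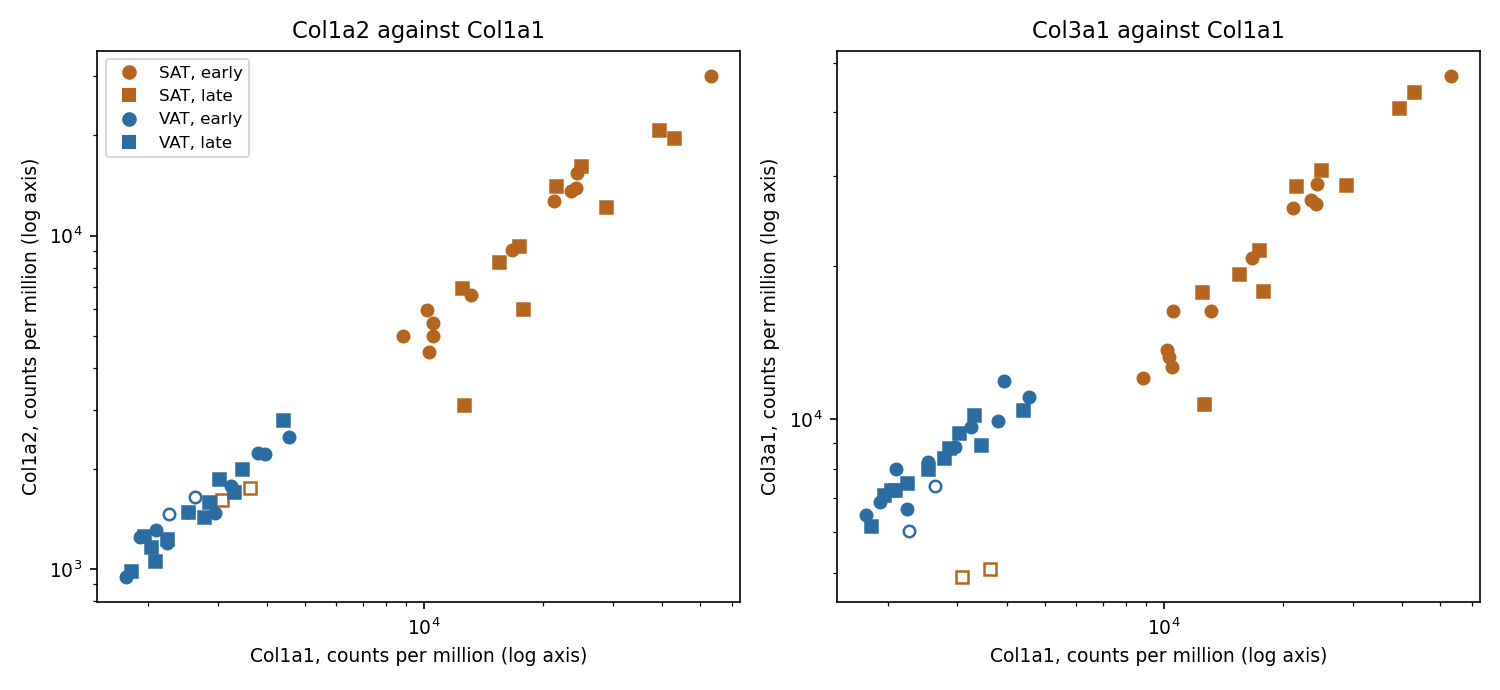
Col1a2 against Col1a1 (left) and Col3a1 against Col1a1 (right), in CPM on log axes, for all 48 libraries (SAT brown, VAT blue, early circles, late squares, open symbols for the 4 libraries that stood apart). Col1a1 and Col1a2 fall near one line across both depots, while for Col3a1 the depots lie on separate lines, with the 2 open SAT squares low on the SAT side.

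The spread between rats was larger in subcutaneous than in visceral fat. The SD of log2 CPM within groups was 0.97 for Col1a1, 0.99 for Col1a2 and 0.79 for Col3a1 in SAT, and 0.41, 0.42 and 0.27 in VAT. For comparison, the median gene with a mean of at least 5 CPM had an SD of 0.26 in SAT (11068 genes) and 0.17 in VAT (10710 genes). From lowest to highest library, Col1a1 spanned 17.3-fold in SAT and 2.57-fold in VAT, Col1a2 18.7-fold and 2.97-fold, and Col3a1 9.62-fold and 1.96-fold. Without the libraries that stood apart, the SAT spans were 6.01-fold, 9.68-fold and 4.40-fold and the SAT SDs 0.75, 0.86 and 0.63, and the VAT spans were 2.57-fold, 2.97-fold and 1.92-fold and the VAT SDs 0.43, 0.44 and 0.26. The lowest 2 SAT libraries were LAE replicates 6 and 4 and the highest was EAE replicate 1 for all 3 genes.

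Levels in the depots of a rat showed no positive relation. Over 24 rats, with group means removed, the depots correlated at r = -0.380 (rho = -0.323) for Col1a1, r = -0.420 (rho = -0.451) for Col1a2 and r = -0.397 (rho = -0.388) for Col3a1. None passed the threshold: permutation p for r was 0.078, 0.0555 and 0.0537, with an adjusted p of 0.078 for each of the 3, and p for rho was 0.142, 0.0391 and 0.0778. Without the 2 rats farthest from the median in SAT r was -0.354, -0.446 and -0.403, and over the 20 rats with no library that stood apart it was -0.201, -0.276 and -0.290. LAE rats 4 and 6, lowest in SAT, had the highest VAT values of their group, with 3450 and 2851 CPM of Col1a1 and 8894 and 8775 CPM of Col3a1. These values take same-numbered libraries of the depots as 1 rat.

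Exercise at the early active phase left the collagens without a detectable difference. In SAT the fitted EAE minus EAC change was 0.25 ± 0.54 for Col1a1, 0.19 ± 0.56 for Col1a2 and 0.14 ± 0.45 for Col3a1 (log2 ± SE, adjusted p = 1.00 for each, edgeR). The SAT intervals reached from 0.550-fold to 2.56-fold for Col1a1 and from 0.578-fold to 2.10-fold for Col3a1, which leaves room for a 2-fold rise. EAE replicate 1, with 53083 CPM of Col1a1, decided the sign: without it the change was -0.30 for Col1a1, -0.40 for Col1a2 and -0.20 for Col3a1. In VAT the changes were -0.06 ± 0.23, -0.11 ± 0.23 and -0.13 ± 0.15, with intervals of 0.689-fold to 1.33-fold for Col1a1 and 0.732-fold to 1.14-fold for Col3a1. Without the VAT libraries that stood apart the VAT changes were -0.04, -0.10 and -0.11. Of all genes tested 0% were called in either depot.

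Exercise at the late active phase went with lower mean collagen message in both depots, and 0 of 3 genes passed the test in either. In SAT the LAE minus LAC change was -0.60 ± 0.54 for Col1a1, -0.97 ± 0.56 for Col1a2 and -0.73 ± 0.45 for Col3a1 (log2 ± SE; adjusted p = 0.461, 0.244 and 0.275, edgeR), with a background of 11.5% of the 14372 genes called and 3.67% called lower. The intervals ran from 0.305-fold to 1.43-fold, from 0.227-fold to 1.15-fold and from 0.315-fold to 1.15-fold. LAE libraries held both extremes: replicate 5 was the highest of the group for every collagen, at 42814 CPM of Col1a1, and replicates 4 and 6 were the lowest, at 3634 and 3075 CPM. Without replicate 5 the Col1a1 mean of LAE was 10518 ± 6799 CPM (SD, n = 5) and the changes were -1.18, -1.65 and -1.26, with Col1a2 and Col3a1 past the threshold (adjusted p = 0.033 and 0.0344, edgeR) and Col1a1 not (0.102). In that fit 21.2% of all genes were called. Without replicates 4 and 6 the Col1a1 mean was 22174 ± 13925 CPM (SD, n = 4) and the changes were -0.12, -0.52 and -0.30 (adjusted p = 0.912 for Col1a1 and 0.714 for Col3a1, edgeR), with 2.14% of all genes called.

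In VAT, where the spread was smaller, the late exercise changes were -0.33 ± 0.23 for Col1a1, -0.37 ± 0.23 for Col1a2 and -0.23 ± 0.15 for Col3a1 (adjusted p = 0.618, 0.582 and 0.596, edgeR; 0% of 13883 genes called). The intervals ran from 0.572-fold to 1.11-fold, from 0.554-fold to 1.09-fold and from 0.683-fold to 1.06-fold. Leaving out any library of LAE or LAC kept each of the 3 changes below 0, between -0.46 and -0.20 for Col1a1, -0.51 and -0.19 for Col1a2 and -0.29 and -0.18 for Col3a1, and called none of them. The median change of the 3 genes was -0.33 in VAT and -0.73 in SAT, against 0.00 and 0.03 over all genes. The late exercise effect did not differ detectably between depots (VAT minus SAT 0.27 ± 0.59, 0.61 ± 0.61 and 0.50 ± 0.47; adjusted p = 0.849, 0.652 and 0.630, edgeR; 0% of all genes called). Without the libraries that stood apart these values were -0.22, 0.14 and 0.053. Over all genes, 672 were called without SAT LAE replicate 2 and 347 without SAT LAE replicate 5.

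**Figure D4:**
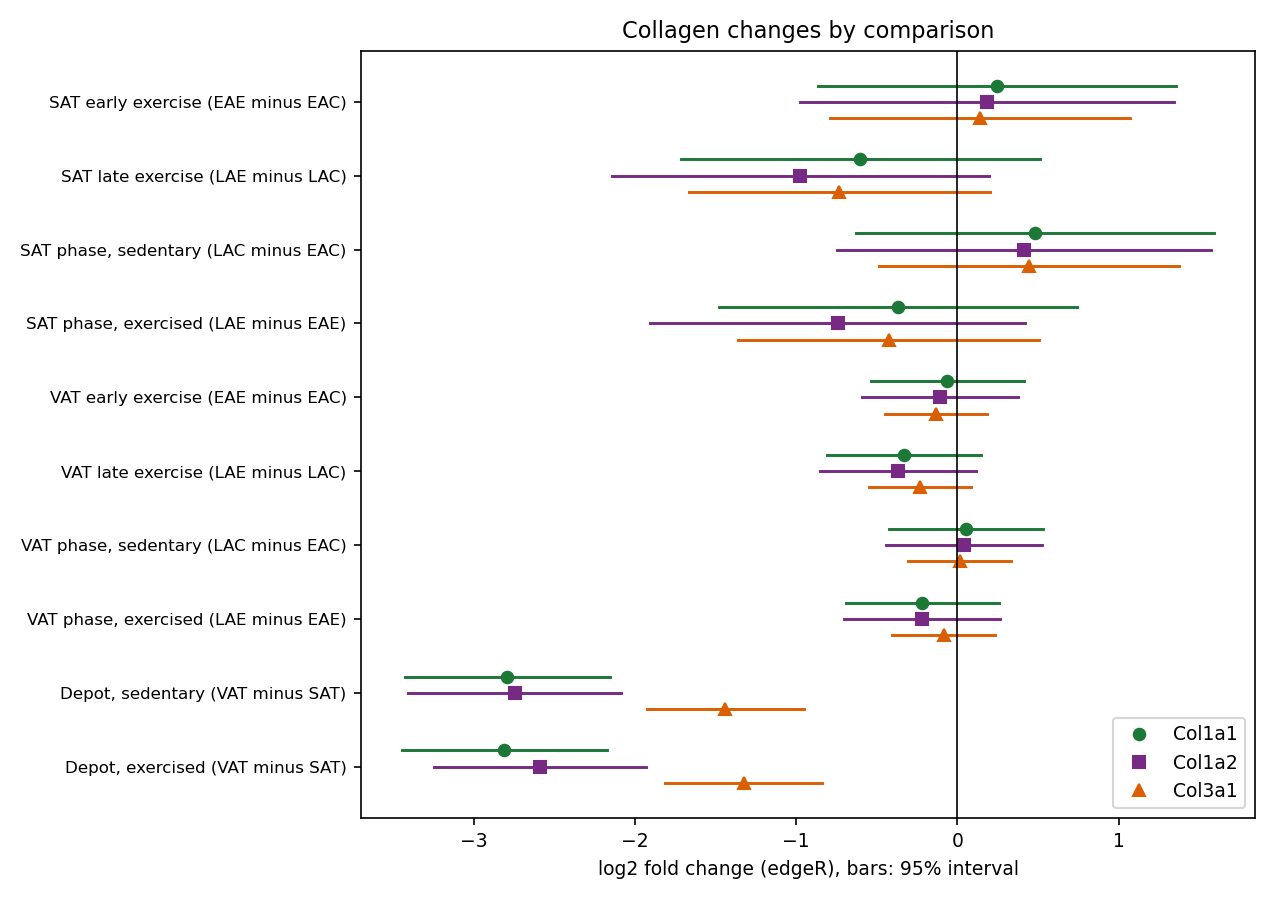
Fitted log2 fold changes of Col1a1 (circles), Col1a2 (squares) and Col3a1 (triangles) with 95% intervals for each comparison of exercise, phase and depot. Intervals of the exercise and phase comparisons include 0 and are wider in SAT than in VAT, while those of VAT minus SAT in sedentary and in exercised rats lie wholly below 0.

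Time of day in sedentary rats was compared as LAC minus EAC. In SAT the 3 collagens had higher means late, with changes of 0.48 ± 0.54, 0.42 ± 0.56 and 0.45 ± 0.45 for Col1a1, Col1a2 and Col3a1, none of which passed (adjusted p = 0.737, 0.795 and 0.706, edgeR; 3.22% of all genes called). In VAT the changes were 0.05 ± 0.23, 0.04 ± 0.23 and 0.01 ± 0.15 (adjusted p = 0.929, 0.947 and 0.974, edgeR), where 11.3% of all genes were called; without the VAT libraries that stood apart they were 0.03, 0.04 and -0.027. The VAT intervals ran from 0.745-fold to 1.44-fold for Col1a1 and from 0.810-fold to 1.26-fold for Col3a1. Between exercised groups the hour of collection and that of the sessions differed together, so LAE minus EAE cannot tell them apart. In exercised rats LAE minus EAE was -0.37 ± 0.54, -0.74 ± 0.56 and -0.43 ± 0.45 in SAT (adjusted p = 0.654, 0.363 and 0.529, edgeR; 17.3% of all genes called). Without LAE replicates 4 and 6 these values were 0.11, -0.29 and 0.01, and without EAE replicate 1 that of Col1a1 was 0.19. In VAT they were -0.22 ± 0.23, -0.22 ± 0.23 and -0.08 ± 0.15 (adjusted p = 0.548, 0.552 and 0.746, edgeR; 21.0% of all genes called), and without EAC replicate 5 and EAE replicate 3 they were -0.27, -0.24 and -0.16.

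Whether exercise acted differently at the early and late phases was tested as an interaction. It was -0.85 ± 0.76 for Col1a1, -1.16 ± 0.79 for Col1a2 and -0.87 ± 0.64 for Col3a1 in SAT (adjusted p = 0.578, 0.456 and 0.488, edgeR) and -0.27 ± 0.33, -0.26 ± 0.33 and -0.10 ± 0.22 in VAT (adjusted p = 0.923, 0.928 and 0.968, edgeR), with 0% of all genes called in either depot. Without the libraries that stood apart the SAT values were -0.38, -0.71 and -0.44 and the VAT values -0.30, -0.28 and -0.13. Across the 33 tests of exercise, phase and interactions on these genes, 0 passed after adjustment and 0 had an unadjusted p under 0.05 (lowest 0.0984, edgeR). DESeq2 and limma voom called 0 of the 33 as well.

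In SAT, fewer genes were detected in libraries with more collagen message. LAE replicates 4 and 6, lowest in collagen, had 16975 and 17180 genes with at least 1 count, against 14653 to 16587 in the other 22 SAT libraries, and EAE replicate 1, highest in collagen, had the 14653. Detected genes were counted without correction for the library total. That total was 13265565 in EAE replicate 1 and 16550286 and 15666820 in LAE replicates 4 and 6. LAE replicate 5, also high in collagen, had 15458 genes at a total of 15392638. The part of library totals in this relation was not tested. Over the 24 SAT libraries, with group means removed, the mean deviation of the 3 collagens correlated with detected genes at r = -0.741 (rho = -0.611; permutation p = 0.00221 and 0.00834), and at r = -0.611 without the 2 farthest libraries. Among the 22 SAT libraries without replicates 4 and 6 it was r = -0.568 (permutation p = 0.0304) and rho = -0.372 (permutation p = 0.113). There r was -0.204 without a further 2, so that value rested on those libraries. In VAT it was r = 0.210 (permutation p = 0.417) and rho = 0.411 (permutation p = 0.0599) over 24 libraries. Without EAC replicate 5 and EAE replicate 3 it was r = 0.749 (permutation p = 0.00025) and rho = 0.727 (permutation p = 0.00068). This relation was chosen after the values were seen, and its part in the comparisons above was not tested.

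Among 10521 other genes with a mean of at least 5 CPM in both depots, 420 followed the mean collagen deviation at r over 0.8 in SAT, 39 in VAT and 29 in both. Ranked by the lower of the r in SAT and the r in VAT, the gene most like the collagens was ENSRNOG00000010977, with r = 0.956 in SAT and 0.930 in VAT over 24 libraries each. Its means were 186 ± 46.5, 210 ± 95.4, 189 ± 35.8 and 124 ± 101 CPM in SAT EAC, EAE, LAC and LAE and 137 ± 43.7, 126 ± 52.0, 131 ± 28.0 and 109 ± 26.8 CPM in VAT (SD, n = 6). Next was ENSRNOG00000026415, with r = 0.968 and 0.898, at 543 ± 216, 592 ± 368, 709 ± 212 and 386 ± 314 CPM in SAT and 282 ± 80.6, 249 ± 66.8, 289 ± 49.9 and 238 ± 53.2 CPM in VAT. These correlations are descriptions over libraries that share the same rats and the same library size.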

How the data were processed

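RNA from 2 fat depots of 24 rats was sequenced as polyA-selected 50-nt single-end libraries, per the labels' protocols. The authors deposited estimated counts per gene as whole numbers; the submitters' processing notes name Salmon 1.4.0 and rn6, while the annotation release is not given in the sources used here. The symbols of the 3 collagens came with their IDs from a pairing given for this work, not from the table. Columns were matched to samples by library name, with 0 columns left over.

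Counts were tested with edgeR 4.0.16 (R 4.3.3): filterByExpr, TMM, a quasi-likelihood fit of the 24 libraries of a depot (14372 genes in SAT, 13883 in VAT) or of all 48 (14693 genes), and Benjamini-Hochberg adjustment over all genes at 0.05. SE is the log2 change over the square root of F, and 95% intervals use the fit's degrees of freedom. The fits were checked on simulated counts with changes given to randomly picked genes. For late exercise in SAT, 63.3% of 2-fold and 89.6% of 4-fold changes were recovered, and 8 unchanged genes were called. The values were 82.0%, 99.0% and 11 for late exercise in VAT and 79.6%, 95.0% and 5 for the depots in sedentary rats. These rates are not those of the collagens. CPM use TMM factors over 48 libraries, and correlations use log2 CPM with a prior count of 2. Permutation tests are two-sided (scipy 1.17.1), exact for 6 against 6. Libraries over 5 median absolute deviations below the depot's median Spearman correlation were said to stand apart.

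The labels count 6 rats a group with both depots, and do not state that a replicate number is 1 rat. As a check, 26 of 10524 genes had deviations correlated over 0.8 between same-numbered depots. In a match that left each rat out of the choice of genes, SAT paired best with the same number in VAT for 22 of 24 (not EAE 1 and LAE 4). The genes of each comparison were named by rule: the 3 collagens, and the 2 most similar IDs. The members, lists and motifs were chosen with earlier results of these data known. Lists of other collagen genes and cell type markers were not analysed here, since 0 IDs could be paired with symbols. Alternatives were DESeq2 1.42.0 size factors and Wald test, limma 3.58.1 voom with quality weights, no filter, only the compared groups, a block for the replicate number, and each library left out in turn; leaving out the libraries that stood apart and taking library totals without the collagens were added after seeing the data.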

Additional observations from a re-analysis of the deposited data

Results flagged for a closer look

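In 40 checks of the 3 genes' CPM and of the 2 ratios in the 8 groups of 6, a library lay far from the rest in 5. The rule flags about 1 in 20 groups of normally distributed values. The CPM were checked unlogged, where high values lie farther apart, so that rate sets no chance level here. All 5 fell on 2 SAT libraries, and the genes are not independent. EAE replicate 1 had 53083 CPM of Col1a1 (next highest 23516) and 30134 of Col1a2 (next 13556). LAE replicate 5 had 42814 CPM of Col1a1 (next 17834), 19631 of Col1a2 (next 8343) and 43762 of Col3a1 (next 19277). Neither library was among those that stood apart by rank correlation.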

How the results depend on the processing

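Of the recomputed counts of collagens, ratios or correlations past the threshold, 368 stayed within 1.5 times the reported count and 3 rose. With 1 library left out, the collagens called for late exercise in SAT numbered 0 to 2 (2 without LAE replicate 5) and the ratios called 1 to 2. Of the single values, 1237 kept their direction and, where tested, their side of the threshold, 4 came to pass it and 54 changed sign, none of which had passed it. With limma voom quality weights the early exercise change in SAT was -0.048 for Col1a1 and -0.10 for Col1a2, the LAE minus EAE change of Col1a1 in SAT 0.21, and the depot difference of the late exercise effect for Col1a1 -0.022. Without the libraries that stood apart, that difference was -0.22, LAE minus EAE in SAT was 0.11 for Col1a1 and 0.0091 for Col3a1, LAC minus EAC in VAT was -0.027 for Col3a1, and LAE minus EAE of Col1a1 to Col1a2 in VAT was -0.030. As differences of medians, the log2 ratio of Col3a1 to Col1a1 changed from EAC to LAC by 0.031 in SAT and 0.048 in VAT, and Col1a1 to Col1a2 from EAE to LAE in VAT by -0.014. With single libraries left out, early exercise in SAT ran from -0.30 to 0.40 for Col1a1, -0.40 to 0.35 for Col1a2 and -0.20 to 0.27 for Col3a1, and in VAT from -0.26 to 0.049 for Col1a1 and -0.29 to 0.0024 for Col1a2. LAE minus EAE ran from -0.95 to 0.19 for Col1a1 in SAT and -0.16 to 0.015 for Col3a1 in VAT. LAC minus EAC in VAT ran from -0.094 to 0.16, -0.16 to 0.14 and -0.049 to 0.12 for Col1a1, Col1a2 and Col3a1, and the VAT interaction of Col3a1 from -0.20 to 0.0051. Ratios of Col3a1 to Col1a1 ran from -0.049 to 0.11 for early exercise, -0.14 to 0.037 for late exercise, -0.060 to 0.043 for LAC minus EAC and -0.17 to 0.0080 for LAE minus EAE in SAT, and from -0.088 to 0.033 for LAC minus EAC in VAT. Ratios of Col1a1 to Col1a2 ran from -0.060 to 0.066 for LAC minus EAC in SAT, and in VAT from -0.0062 to 0.064 for late exercise and -0.030 to 0.047 for LAE minus EAE. The cause of these changes was not tested.

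With the replicate number as a block, late exercise in SAT gave -0.96 for Col1a1, -1.40 for Col1a2 and -1.03 for Col3a1 (adjusted p = 0.191, 0.0918 and 0.112, edgeR), and the block changed no call of a collagen. Between groups of a depot, which hold different rats, deviations of same-numbered libraries correlated at -0.279 to 0.357 in SAT (13 of 36 pairs over 0.1) and -0.404 to 0.303 in VAT (13 of 36), and 3 of 24 SAT and 12 of 24 VAT libraries were closest to their own number. What same-numbered libraries of a depot share beyond the number was not tested, and the main fits held no term for it. Between SAT and VAT, 18 of 24 same-numbered pairs correlated over 0.1 (-0.141 to 0.311).

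Counts over all genes also varied with the processing. For late exercise in SAT, edgeR called 1654 genes, 385 with the replicate block, 310 without the libraries that stood apart and 0 on the compared groups alone, where 2982 had an unadjusted p under 0.05. DESeq2 called 2718 and limma voom 298. With 1 library left out the edgeR count ran from 257 without LAE replicate 4 to 3067 without LAE replicate 5, with 380 without LAE replicate 6, 2904 without LAE replicate 2, and 354, 352, 329 and 1076 without LAC replicates 1, 2, 3 and 6. For LAC minus EAC in SAT the count of 463 became 1241 without the libraries that stood apart, 1671 on the compared groups, 772 with DESeq2 and 2849 with voom, and 290, 264, 292 and 292 without EAC replicates 2 and 6 and LAC replicates 1 and 4. For LAE minus EAE in SAT the count of 2492 became 383 on the compared groups and 1339 with voom and 1500 without LAE replicate 6, and for LAC minus EAC in VAT the 1575 became 2398 with voom. Where edgeR called 0 genes, DESeq2 and voom called 43 and 200 for late exercise in VAT (1557 at an unadjusted p under 0.05 in edgeR), 184 and 1 for the SAT interaction (2411), 2 and 0 for the VAT interaction (975), 172 and 0 for the depot difference of late exercise (2464), 3 and 0 for early exercise in SAT (131) and 0 and 0 for early exercise in VAT (345). Without the libraries that stood apart, edgeR called 4 for the SAT interaction. That count was 37 with LAE replicate 5 alone left out, 4 without LAE replicate 2 and 1 without EAE replicate 1. Late exercise in VAT had 36 without LAE replicate 6.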
